A study of Rattus norvegicus with 12 samples.

Results

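RNA of neonatal rat cardiomyocytes was compared with RNA of cardiac fibroblasts from the same study, both transfected with a universal negative control siRNA. The genes described are those whose FPKM averaged 0.5 or more in the 6 control libraries, which were 11207 of the 14636 genes in the deposited table. FPKM is a level of RNA fragments that is scaled to the length of the transcript and to the number of mapped fragments of the library. Cells came from the hearts of Sprague Dawley rats at postnatal day 2. The hearts were dissociated with a kit, and a Percoll density gradient parted muscle cells from fibroblasts. Both cell types grew in DMEM with 15% fetal bovine serum, were transfected 16 h after the cells had been set up and were collected in Trizol 48 h later. There were 3 cardiomyocyte libraries and 3 fibroblast libraries with control siRNA, and 6 libraries with siRNA against Yap (25 nM of each siRNA in the mix) entered only the estimate of the spread. No label ties a library to its own animal, litter or dish. A p-value given here is therefore set against differences between libraries that may be only technical. At the edge of the filter, Gnal was just inside at 0.5 FPKM and Samd15 just outside at 0.498 FPKM.

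Cardiomyocytes generate the heartbeat. Their cytoplasm is filled with sarcomeres, in which myosin filaments pull on actin filaments when calcium released from the sarcoplasmic reticulum binds to troponin, and their mitochondria burn mainly fatty acids once the newborn period has passed. Cardiac fibroblasts build and remodel the collagen-rich matrix around the muscle cells. In culture on plastic with serum they take up features of myofibroblasts, contractile matrix-producing cells that carry smooth muscle actin.

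FPKM summed to between 567800.0 and 590420.7 per control library. Read counts are not part of the table, and the depth of each library is therefore unknown. Spearman correlations across genes were 0.993 to 0.996 between libraries of the same cell type and 0.828 to 0.844 between cell types. The 100 most abundant genes held 28.9 to 29.5% of the summed FPKM in cardiomyocyte libraries and 35.6 to 36.6% in fibroblast libraries. Genes were tested with limma on log2(FPKM + 1), and a gene is termed called where its p after Benjamini-Hochberg adjustment was under 0.05. Log2 fold changes are cardiomyocytes minus fibroblasts and carry limma's standard error (SE). With 3 libraries in each group, the smallest p of an exact two-sided permutation test is 0.1 (10 splits), so the calls rest on limma's spread pooled over genes and groups.

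Most of the tested genes differed between the cell types. Called genes numbered 7685, which is 68.6% of those tested, with 4722 higher in cardiomyocytes (42.1%) and 2963 higher in fibroblasts (26.4%). A called log2 fold change of at least 1 was found in 1502 genes higher in cardiomyocytes (13.4%) and in 857 higher in fibroblasts (7.65%). A change of at least 2 was found in 840 genes (7.50%), of which 567 were higher in cardiomyocytes (5.06%) and 273 in fibroblasts (2.44%), and a change of at least 4 in 134 (1.20%) and 41 (0.366%). The libraries of the groups did not overlap in 8234 genes (73.5%), with cardiomyocytes higher in 5042 (45.0%) and fibroblasts in 3192 (28.5%). The balance of directions depends on scaling. The median log2 fold change of all tested genes was 0.13 on the deposited FPKM, 0.01 after median-of-ratios scaling and -0.06 after quantile normalization. Of the genes called in these settings, 61.4%, 50.8% and 44.9% were higher in cardiomyocytes, so small differences are read against the median of all genes.

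The marker genes separated the 2 cell types as labelled. Values are given in the order cardiomyocyte libraries 1 to 3, then fibroblast libraries 1 to 3. Tnnt2, which encodes cardiac troponin T, stood at 5067.73, 5145.46 and 5903.35 FPKM in cardiomyocytes and at 518.58, 518.75 and 541.97 FPKM in fibroblasts. Myh6, the gene of the alpha myosin heavy chain, stood at 2194.8, 2275.71 and 2821.73 FPKM against 34.13, 33.56 and 32.25 FPKM. Col3a1, which encodes the chain of type III collagen, stood at 30.04, 36.8 and 21.88 FPKM against 3952.9, 4103.24 and 4032.25 FPKM. In each of these genes the groups lay far apart, and relative to their means the fibroblast libraries varied less than the cardiomyocyte libraries. Tcf21, a transcription factor gene of the cardiac fibroblast lineage, stood at 0.8, 1.43 and 1.24 FPKM against 131.81, 141.73 and 138.88 FPKM. The log2 fold changes were 3.35 ± 0.09 SE for Tnnt2, 6.14 ± 0.10 for Myh6, -7.07 ± 0.13 for Col3a1 and -6.02 ± 0.14 for Tcf21, with adjusted p between 7.97e-17 and 2.87e-14 for all 4. All 11 tested cardiomyocyte markers were called higher in cardiomyocytes, and all 12 fibroblast markers were called higher in fibroblasts.

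**Figure D1:**
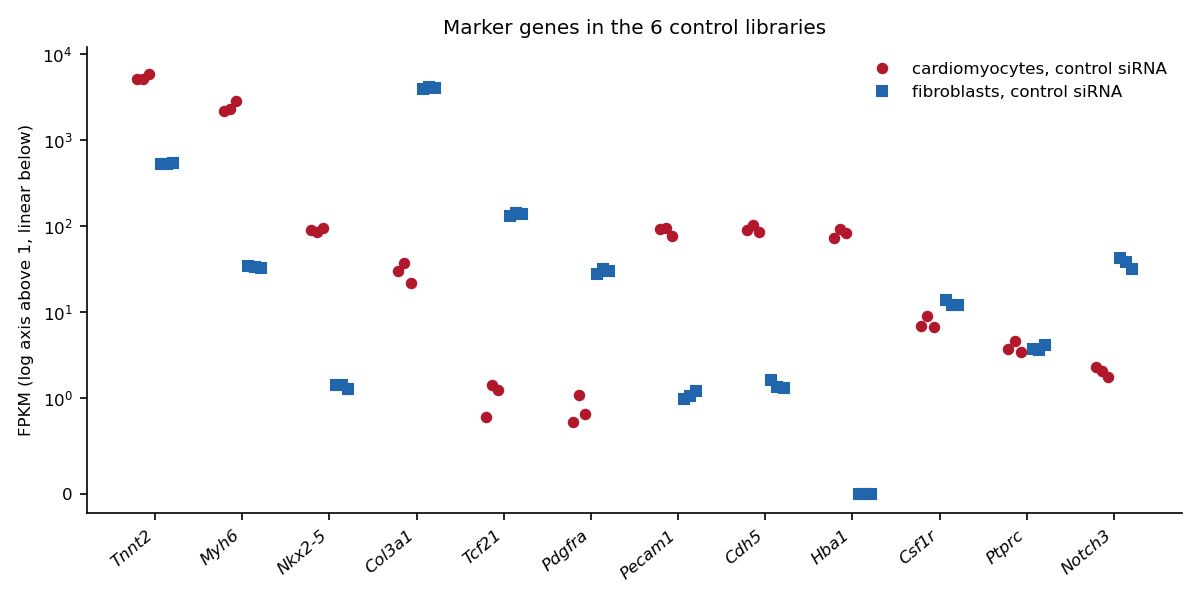
FPKM (log axis above 1, linear below) of 12 marker genes, 1 point per library, for 3 cardiomyocyte libraries (circles) and 3 fibroblast libraries (squares) with control siRNA. Tnnt2, Myh6 and Nkx2-5 were higher in every cardiomyocyte library and Col3a1, Tcf21 and Pdgfra in every fibroblast library, while the endothelial genes Pecam1 and Cdh5 stood with the cardiomyocytes.

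Markers of other cell types were not spread evenly over the groups. All 13 tested endothelial markers were called higher in the cardiomyocyte libraries, and the 15 markers in the table summed to 612.1 to 725.7 FPKM there and to 184.1 to 210.7 FPKM in fibroblast libraries. Pecam1, which encodes an adhesion molecule of endothelial junctions, stood at 93.46, 95.09 and 77.07 FPKM against 0.99, 1.05 and 1.22 FPKM. Cdh5, the gene of vascular endothelial cadherin, stood at 90.25, 102.94 and 84.77 FPKM against 1.62, 1.34 and 1.32 FPKM. Most of the fibroblast sum came from 1 gene, Eng, a TGF-beta co-receptor gene, at 174 ± 12.4 FPKM (SD, n = 3), and 1 marker, Robo4, was listed at 0 in every fibroblast library. Globin genes were high in cardiomyocyte libraries, where the 7 erythroid markers in the table summed to 211.4 to 260.0 FPKM, against 1.1 to 1.9 FPKM in fibroblasts. The sum came almost wholly from globins. Alas2 stood at a mean of 0.81 against 0.037 FPKM, Slc4a1 at 0.063 against 0.027 FPKM and Epb42, not called, at 0.44 against 0.62 FPKM. The 2 erythroid markers listed at 0 in every fibroblast library were Hba1 and Hbb-b1. Leukocyte markers leaned the other way, with 3 of 15 called higher in cardiomyocytes and 8 in fibroblasts, and with sums of 284.2 to 376.1 against 437.2 to 466.7 FPKM. Smooth muscle and pericyte markers were called higher in cardiomyocytes in 3 of 11 cases and in fibroblasts in 7, and their sums of 839.6 to 878.8 against 314.9 to 356.8 FPKM differed mainly through Des, which heart muscle expresses too, at 670 ± 17.8 against 35.5 ± 0.425 FPKM (SD, n = 3). For comparison, 42.1% of all tested genes were called higher in cardiomyocytes and 26.4% in fibroblasts. The part of these other cell types in the results below was not tested.

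The cardiomyocyte libraries also differed slightly in their marker sums. Cardiomyocyte markers summed to 30544.9, 30764.1 and 33580.1 FPKM and fibroblast markers to 447.6, 507.3 and 350.6 FPKM in libraries 1 to 3, so library 3 held the highest cardiomyocyte sum and the lowest fibroblast sum. Without library 3, 7308 genes were called, 4551 higher in cardiomyocytes and 2757 higher in fibroblasts.

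All 35 tested genes of the thick filament, thin filament and Z-disc were called higher in cardiomyocytes, each by at least 1 on the log2 scale, with a list median of 5.30 against 0.13 for all tested genes. Together the 36 sarcomere genes in the table held 7.07 to 8.20% of the summed FPKM of a cardiomyocyte library and 0.438 to 0.444% of a fibroblast library. Among the motor proteins of the thick filament, Myh7, the beta myosin heavy chain gene that dominates in the fetal rat ventricle, stood at 2079.54, 2352.97 and 2484.03 FPKM against 39.01, 38.65 and 35.01 FPKM. Myh6 and Myh7 were therefore present at similar levels in the cardiomyocytes, 2431 ± 341 and 2306 ± 206 FPKM (SD, n = 3), a difference within the spread of the libraries. Mybpc3, whose product binds the myosin rod and tunes contraction, stood at 247 ± 30.4 against 3.13 ± 0.330 FPKM.

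Of the thin filament, Actc1, the cardiac actin gene, stood at 7704.64, 8017 and 8450.95 FPKM against 141.25, 167.01 and 161.54 FPKM. Only Nppa was more abundant in the mean of the cardiomyocyte libraries. Acta1, the skeletal actin gene that the newborn heart still expresses, stood at 510.49, 544.64 and 549.09 FPKM against 4.84, 7.17 and 5.78 FPKM, a log2 fold change of 6.29 ± 0.15 SE. All 3 cardiomyocyte libraries were close to each other, as were the fibroblast libraries. Tnni3 (cardiac troponin I) had a log2 fold change of 5.73 ± 0.10 and Tnnc1 (cardiac troponin C) 5.59 ± 0.07, against 3.35 for Tnnt2. Tnni1, the slow skeletal troponin I that the fetal heart uses before Tnni3 replaces it, was still at 444 ± 36.6 FPKM in cardiomyocytes, below the Tnni3 level of 1760 ± 81.4 FPKM. At the Z-disc, which anchors thin filaments, Csrp3 (muscle LIM protein) stood at 1021.56, 1162.64 and 1082.3 FPKM against 10.45, 12.34 and 14.51 FPKM. Its log2 fold change of 6.35 ± 0.09 was the highest of the list. The Z-disc genes Ldb3 and Actn2, which encode Cypher and muscle alpha-actinin, were higher by 5.92 ± 0.11 and 5.88 ± 0.07.

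The fibroblast level of these genes ran from 0.518% to 37.8% of the cardiomyocyte mean, with most genes in a narrow part of that range. Of the 35 tested sarcomere genes, 24 stood in fibroblasts at 1 to 3% of their cardiomyocyte mean, 2 stood under 1% (Myom2 at 0.649% and Xirp2 at 0.518%) and 9 stood over 3%. The list median was 1.70%. Fibroblast Myh6 stood at 1.37%, Actn2 at 1.61%, Myl2, the ventricular regulatory light chain gene, at 1.68% and Tnnc1 at 2.05% of the cardiomyocyte mean. Among the genes far above this level were Tnnt2 (9.80%), Tpm1 (16.5%), Pdlim5 (24.7%), Cryab (36.5%) and Flnc (37.8%). Tpm1 encodes a tropomyosin with non-muscle forms, Cryab a small heat shock protein and Flnc a filamin. Why these genes, Tnnt2 and Pdlim5 stood above the others was not tested. In bulk RNA, fewer cells of a type and less RNA per cell cannot be told apart, so a level of 1 to 3% cannot be assigned to a few muscle cells or to every fibroblast.

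**Figure D2:**
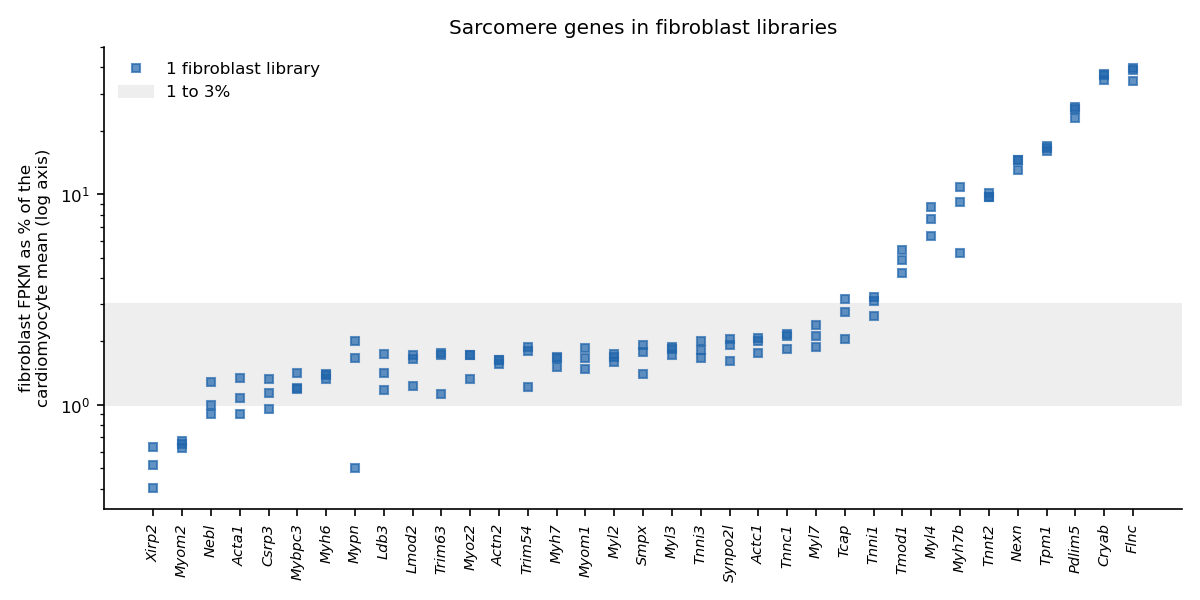
Fibroblast FPKM of the tested sarcomere genes as a percentage of each gene's cardiomyocyte mean (log axis), with 1 point per fibroblast library and a grey band from 1 to 3%. Of the 35 genes, 24 have their mean in the band, and Tnnt2, Tpm1, Pdlim5, Cryab and Flnc stand well above it.

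Muscle genes are known to carry short regulatory motifs close to the transcription start, so the 250 bases before the start were searched in RefSeq sequences of the rat assembly GRCr8, which is newer than the rn6 build of the deposited values. Of the 11207 tested genes, 9106 had a window. Both strands were searched for the CArG box (bound by SRF), the MEF2 site, CATTCC (the TEAD core), AGATAA (the GATA core), CAGCTG (an E-box) and TATAAA. The A- and T-rich motifs can overlap one another. The CArG box was found in 13.3% of 30 sarcomere gene windows (4) and in 1.16% of the 9562 windows of tested genes, and the MEF2 site in 16.7% (5) and 1.50%. CATTCC was found in 33.3% of sarcomere windows and 10.1% of all tested, and CAGCTG in 36.7% and 12.3%. Of 17 collagen and fibronectin windows, 0 held a CArG box or a MEF2 site, 11.8% held CATTCC and 23.5% held CAGCTG. Among genes higher in cardiomyocytes by at least 4 on the log2 scale, 13.0% of 108 windows held a MEF2 site, while 3.33% of 30 windows did among genes higher in fibroblasts by as much. The CArG box (5.56% and 0%), CATTCC (16.7% and 3.33%) and AGATAA (11.1% and 3.33%) had the same order in these windows. CAGCTG, in 24.1% and 33.3%, and TATAAA, in 18.5% and 20.0%, did not. At a change of at least 1, the CArG box was in 1.54% of the cardiomyocyte and 1.81% of the fibroblast windows. These are matches of letters, counted over few windows and chosen by expression in the same libraries, and were not tested. The windows of 6 genes with large differences are shown, 4 from the cardiomyocyte side and 2 from the fibroblast side. These genes were picked by hand, each together with motifs it holds, and do not show how common a motif is. Windows are on the strand of the gene, with the searched motifs, on either strand, in capitals.
Acta1 (GRCr8 chr19:68784195-68784444, minus strand): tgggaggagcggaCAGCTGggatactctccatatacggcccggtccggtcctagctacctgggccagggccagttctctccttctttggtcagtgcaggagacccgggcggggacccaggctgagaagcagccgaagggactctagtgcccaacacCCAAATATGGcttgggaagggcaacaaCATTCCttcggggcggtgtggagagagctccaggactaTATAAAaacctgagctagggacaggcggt
Myl3 (GRCr8 chr8:119616844-119617093, plus strand): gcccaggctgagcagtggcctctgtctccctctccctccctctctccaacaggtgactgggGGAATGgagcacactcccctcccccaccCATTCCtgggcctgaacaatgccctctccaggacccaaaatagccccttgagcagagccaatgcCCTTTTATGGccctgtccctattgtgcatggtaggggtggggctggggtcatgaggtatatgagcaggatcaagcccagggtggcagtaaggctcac
Cox6a2 (GRCr8 chr1:192219717-192219966, minus strand): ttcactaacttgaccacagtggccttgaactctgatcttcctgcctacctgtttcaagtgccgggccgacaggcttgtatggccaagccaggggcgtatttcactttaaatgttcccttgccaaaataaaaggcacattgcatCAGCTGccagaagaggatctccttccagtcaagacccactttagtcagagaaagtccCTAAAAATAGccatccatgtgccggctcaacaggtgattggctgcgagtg
Nppb (GRCr8 chr5:163699758-163700007, plus strand): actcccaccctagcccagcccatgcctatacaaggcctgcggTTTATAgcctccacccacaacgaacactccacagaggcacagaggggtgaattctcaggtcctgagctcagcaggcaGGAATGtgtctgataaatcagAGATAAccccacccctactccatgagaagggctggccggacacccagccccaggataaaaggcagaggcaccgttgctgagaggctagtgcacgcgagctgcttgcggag
Col1a2 (GRCr8 chr4:33518307-33518556, plus strand): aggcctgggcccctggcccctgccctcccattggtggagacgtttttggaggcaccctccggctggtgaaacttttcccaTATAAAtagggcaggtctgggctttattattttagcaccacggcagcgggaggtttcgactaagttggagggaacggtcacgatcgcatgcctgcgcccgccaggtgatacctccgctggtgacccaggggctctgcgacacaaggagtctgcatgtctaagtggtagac
Postn (GRCr8 chr2:140677811-140678060, plus strand): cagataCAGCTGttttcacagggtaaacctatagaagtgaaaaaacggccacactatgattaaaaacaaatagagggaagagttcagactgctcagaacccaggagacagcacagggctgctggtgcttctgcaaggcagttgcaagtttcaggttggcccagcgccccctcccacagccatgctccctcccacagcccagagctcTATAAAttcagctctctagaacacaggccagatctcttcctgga
Acta1 and Myl3, the genes of skeletal actin and the ventricular essential light chain, each held a CArG box, at -94 to -85 and at -97 to -88 from the start. Cox6a2, a muscle cytochrome c oxidase subunit gene, held a MEF2 site at -50 to -41, and Nppb, the B-type natriuretic peptide gene, held AGATAA at -110 to -105 and CATTCC on the other strand at -131 to -126.

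Calcium handling genes followed the sarcomere genes, though with wider variation. Of 22 tested, 19 were called higher in cardiomyocytes and 2 in fibroblasts, with a median of 2.67. Casq2, the calcium-storing protein of the sarcoplasmic reticulum, stood at 703.05, 722.92 and 793.43 FPKM against 14.11, 13.23 and 12.91 FPKM. Pln, which encodes phospholamban, the brake on the calcium pump, stood at 707.14, 672.58 and 759.59 FPKM against 13.2, 12.78 and 13.42 FPKM. In both genes every cardiomyocyte library was far above every fibroblast library, by 5.68 ± 0.06 SE and 5.66 ± 0.07 on the log2 scale. Ryr2, the calcium release channel, was higher by 4.86 ± 0.12, and Cacnb2, a subunit of the L-type calcium channel, by 4.47 ± 0.11. The pump gene Atp2a2, which is also used outside muscle, stood at 7.17% of the cardiomyocyte level in fibroblasts, and the sodium-calcium exchanger gene Slc8a1 at 14.5%. The 2 genes higher in fibroblasts were Fkbp1b (-0.62 ± 0.24, adjusted p = 0.0342) and Stim1, the calcium sensor of the endoplasmic reticulum (-0.32 ± 0.10, adjusted p = 0.0118). The call of Fkbp1b was lost when cardiomyocyte library 3 was left out (adjusted p = 0.145), when any fibroblast library was left out (adjusted p = 0.0631 to 0.0792) and when genes of low level were kept in the test (adjusted p = 0.0651).

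Ion channel and pacemaker genes were called higher in cardiomyocytes in 21 of 23 cases, with a median of 1.85. Kcnq1 (3.78 ± 0.10 SE) and Kcnh2 (3.53 ± 0.12), which encode channels that repolarize the action potential, were higher in cardiomyocytes, as was the gap junction gene Gja1 (3.58 ± 0.07). Kcne1, the partner subunit of Kcnq1, stood at 7.65, 6.31 and 8.03 FPKM in cardiomyocytes and was listed at 0 in every fibroblast library. Hcn4, the pacemaker channel gene, stood at 9.93 ± 1.45 against 0.117 ± 0.0351 FPKM. The exception was Kcnd3, a transient outward potassium channel gene, at 2.97, 2.84 and 3.11 FPKM in cardiomyocytes and 7.87, 6.23 and 6.9 FPKM in fibroblasts (-1.01 ± 0.11, adjusted p = 4.93e-07).

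At the intercalated disc and the costamere, which couple muscle cells to each other and to the matrix, 17 of 20 genes were called higher in cardiomyocytes and 0 in fibroblasts, with a median of 2.44. Itgb1bp2, the gene of the muscle chaperone melusin, stood at 80.46, 82.42 and 88.34 FPKM against 1.43, 1.5 and 1.96 FPKM. Fhod3, a formin gene of the sarcomere, Cav3, the muscle caveolin gene, and Pkp2, a desmosomal plakophilin gene, were higher by 4.91 ± 0.12, 4.85 ± 0.11 and 4.41 ± 0.07. The 3 genes that were not called were Vcl (vinculin, adjusted p = 0.0583), Ctnnb1 (beta-catenin, adjusted p = 0.0857) and Fhl2 (adjusted p = 0.146), and they were named after their values were seen. Vcl stood at 150.71, 149.85 and 148.13 FPKM against 179.59, 165.51 and 157.17 FPKM, and it was called higher in fibroblasts after median-of-ratios scaling (adjusted p = 0.00148), after quantile normalization, in the fit of the 6 control libraries and without fibroblast library 3 (adjusted p = 0.0338).

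Genes of cardiac transcription factors and other regulators were mostly higher in cardiomyocytes, by widely differing amounts. Of 29 tested, 25 were called higher in cardiomyocytes and 2 in fibroblasts, with a median of 2.34. Nkx2-5, the homeobox gene that marks committed heart muscle, stood at 90.63, 86.35 and 95.34 FPKM against 1.44, 1.44 and 1.28 FPKM, and its fibroblast level of 1.53% was like that of the sarcomere genes. Irx4, a ventricular homeobox gene, stood at 23.8 ± 4.77 against 0.403 ± 0.140 FPKM, and Myocd, the gene of the SRF coactivator myocardin, at 16.4 ± 1.85 against 0.423 ± 0.118 FPKM. Popdc2, a membrane protein gene of the conduction system, and Rbm20, a splicing factor gene of sarcomere transcripts, were higher by 4.84 ± 0.11 and 4.45 ± 0.11. Other early heart factors had fibroblast levels from a few percent to most of the cardiomyocyte level, and these were named after their values were seen. Gata5 stood at 24.8 ± 2.68 against 0.747 ± 0.319 FPKM and Hand1 at 5.99 ± 1.41 against 0.187 ± 0.0950 FPKM. Gata4 stood at 126.78, 125.95 and 139 FPKM in cardiomyocytes and at 67.7, 66.9 and 64.2 FPKM in fibroblasts, and Gata6 at 39.16, 40.11 and 38.74 against 33.13, 33.76 and 32.36 FPKM. The groups did not overlap for either gene, but the fibroblast level was 50.7% and 84.1% of the cardiomyocyte level. The call of Gata6 was lost after median-of-ratios scaling (adjusted p = 0.119) and quantile normalization (adjusted p = 0.283). Hand2 reached 41.7%, Tbx20 30.9%, Mef2a 40.4% and Mef2d 49.4%. Tbx5 stood at 6.50 ± 1.35 against 0.463 ± 0.0971 FPKM. The 2 genes higher in fibroblasts were Hopx, a homeodomain-only cofactor gene (3.66, 3.47 and 4.49 against 9.46, 9.89 and 12.09 FPKM), and Zfpm2, which encodes the GATA4 cofactor FOG2 (5.87, 5.83 and 6.23 against 9.31, 9.92 and 9.34 FPKM). Their log2 fold changes were -1.23 ± 0.12 and -0.59 ± 0.08.

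Secreted factors of heart muscle were led by the natriuretic peptides. Nppa, the A-type peptide gene, stood at 9650.24, 9150.82 and 9683.43 FPKM against 226.1, 223.17 and 245.52 FPKM. Nppb stood at 2907.59, 2759.18 and 2847.46 FPKM against 38.26, 41.42 and 50.66 FPKM. The cardiomyocyte libraries were within a few percent of each other for both, and the log2 fold changes were 5.35 ± 0.07 and 6.01 ± 0.13. Of the 16 tested genes of this list 13 were called higher in cardiomyocytes, among them Hamp, the hepcidin gene (4.29 ± 0.16), and Fgf13 (4.08 ± 0.11). The list also held 2 genes that were called higher in fibroblasts, the plasma glutathione peroxidase gene Gpx3 (-1.17 ± 0.09) and the growth factor gene Igf1 (-2.77 ± 0.12).

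Genes of energy metabolism were higher in cardiomyocytes almost throughout, by smaller amounts than sarcomere genes. All 47 tested nuclear genes of the respiratory chain were called higher in cardiomyocytes, 46 of them by at least 1 on the log2 scale, with a median of 1.61. They held 3.86 to 4.30% of the summed FPKM in cardiomyocytes and 1.12 to 1.19% in fibroblasts. Except for the muscle isoforms Cox6a2 and Cox8b, all these genes lay between 0.83 (Ndufa2, a complex I gene) and 2.40 (Cycs, cytochrome c). Cycs stood at 827.15, 795.91 and 853.79 FPKM against 160.6, 153.7 and 150.89 FPKM. All 23 genes of the tricarboxylic acid cycle were called higher in cardiomyocytes too, with a median of 1.74, such as Mdh1 (malate dehydrogenase, 2.34 ± 0.09 SE). Under quantile normalization 22 of the 23 were called. Of 28 genes of fatty acid uptake and oxidation, 26 were called higher in cardiomyocytes and 2 in fibroblasts, with a median of 1.10. Cpt1b, which admits long-chain fatty acids to muscle mitochondria, stood at 48.62, 46.96 and 51.47 FPKM against 1.17, 0.99 and 0.98 FPKM, and Fabp3, the heart fatty acid binding protein gene, at 1176.89, 1120.15 and 1364.23 against 81.2, 74.54 and 74.51 FPKM. The fatty acid translocase gene Cd36 was higher by 3.29 ± 0.07. Lpl, which releases fatty acids outside the cell, and the transporter gene Slc27a1 were higher in fibroblasts (-0.46 ± 0.06 and -0.45 ± 0.10). The regulators of this programme, named after their values were seen, were among the most restricted genes. Ppargc1a, the PGC-1alpha coactivator gene, stood at 16.96, 20.51 and 24.44 FPKM against 0.12, 0.08 and 0.33 FPKM, and the estrogen-related receptor gene Esrrg at 13.67, 15.66 and 17.67 against 0.22, 0.09 and 0.31 FPKM. Its relative Esrra was shared, at 41.8% of the cardiomyocyte level in fibroblasts.

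Glycolysis differed less than oxidation, apart from muscle isoforms. Of 35 genes, 29 were called higher in cardiomyocytes and 2 in fibroblasts, with a median of 0.89, and 14 were higher by at least 1. Pygm, the muscle glycogen phosphorylase gene, stood at 171.35, 160.91 and 203.06 FPKM against 2.71, 3.33 and 2.89 FPKM. Ldhb, the lactate dehydrogenase chain favoured by oxidative tissue, was higher by 3.79 ± 0.08 SE, and the insulin-responsive glucose transporter gene Slc2a4 by 3.31 ± 0.17. Gapdh, a common reference gene, was itself higher in cardiomyocytes, at 3344.54, 3158.99 and 3556.28 against 2017.75, 1964.82 and 1990.12 FPKM (0.75 ± 0.08, adjusted p = 2.63e-07). The 2 genes higher in fibroblasts were Pygl, the liver glycogen phosphorylase (-1.41 ± 0.12), and Ugp2, which makes UDP-glucose (-0.69 ± 0.07).

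**Figure D3:**
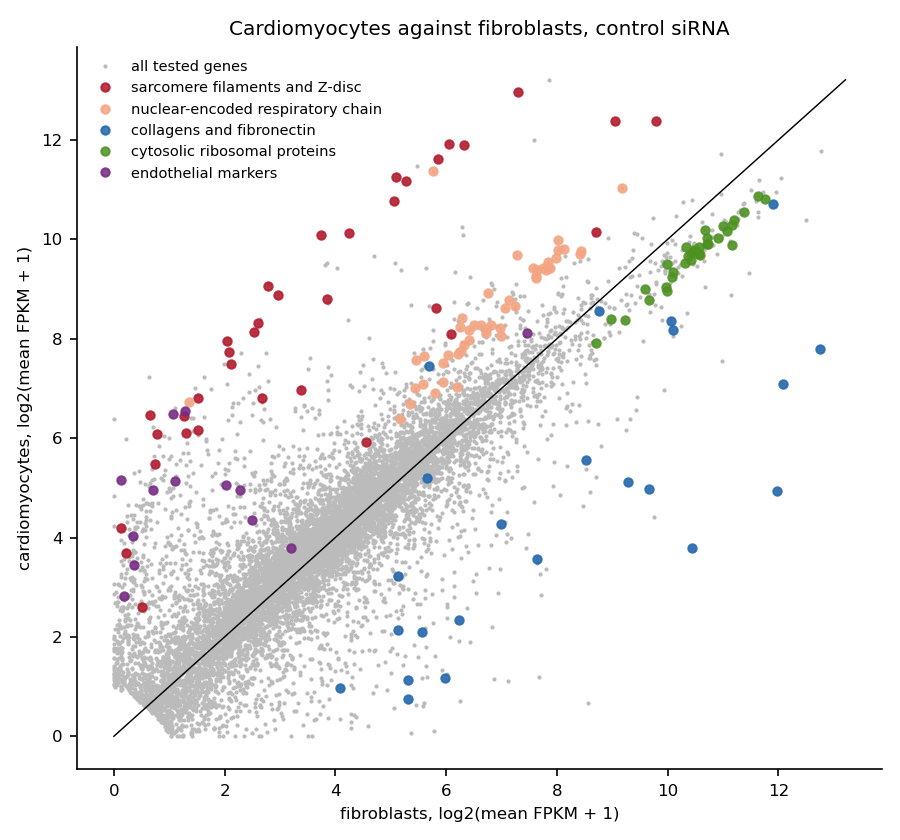
Mean level of each tested gene in cardiomyocytes (y axis) against fibroblasts (x axis), as log2(mean FPKM + 1) over 3 libraries each, with 5 gene lists in colour and the line of equal levels. Sarcomere genes lie above the line with a median log2 fold change of 5.30, respiratory chain genes form a band above it with a median log2 fold change of 1.61, cytosolic ribosomal protein genes a band below it with a median of -0.80, and collagen and fibronectin genes mostly below it with a median of -3.47, apart from Col18a1 above the line.

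Many of these proteins exist in a muscle form and a general form, and the ratio of both within a library does not depend on the library's scale apart from the pseudocount. Of 30 such pairs, 27 had both genes in the table. The ratio of the muscle form to the general form was higher in every cardiomyocyte library than in every fibroblast library in 23 pairs, and lower in 4, on a scale where the pseudocount of 1 pulls the ratio of low genes towards 0. For leiomodin, which lengthens thin filaments, the log2 ratio of Lmod2 to Lmod1 was 5.83, 5.91 and 6.26 in cardiomyocytes and -2.65, -2.86 and -2.36 in fibroblasts. For cytosolic creatine kinase, the log2 ratio of Ckm to Ckb was 0.79, 0.87 and 1.17 against -5.41, -4.96 and -5.14. Both ratios changed sign between the cell types. The muscle gene made up 98.9% of the pair's mean FPKM in cardiomyocytes and 11.5% in fibroblasts for leiomodin, and 66.2% and 1.50% for creatine kinase. The same shares were 77.4% and 4.66% for Actc1 beside Acta2, 84.4% and 6.43% for Actn2 beside Actn1, and 72.0% and 9.91% for Cox6a2 beside Cox6a1. In 10 pairs the muscle form was called higher in cardiomyocytes and the general form higher in fibroblasts, and in 13 pairs both forms were called higher in cardiomyocytes. For the mitochondrial ADP/ATP carrier the shift was small, with Slc25a4 at 67.3% and 59.8% of the pair. The 4 included Fkbp1b with Fkbp1a, where the muscle form was 1.02% and 2.04% of the pair in cardiomyocytes and fibroblasts, and Phkg1 with Phkg2, at 0.170% and 2.18%. They also included Ckmt2 with Ckmt1b, but there the share was 16.6% and 16.1%, so the order on the log2 scale came from the pseudocount. Both mitochondrial creatine kinase genes were called higher in cardiomyocytes, the ubiquitous Ckmt1b at 24.8 against 0.607 FPKM and the sarcomeric Ckmt2 at 4.91 against 0.117 FPKM. The authors' handling of reads that match several genes is not given in the sources used here, so levels of near-identical genes such as the muscle actins, Myh6 and Myh7 or the globins are uncertain to that extent.

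On the fibroblast side, genes of the fibrillar matrix differed most. Of 23 collagen, fibronectin and related genes, 21 were called higher in fibroblasts and 1 in cardiomyocytes, with a median of -3.47. The 24 genes in the table held 4.21 to 4.66% of the summed FPKM in fibroblasts and 0.568 to 0.628% in cardiomyocytes. Col1a1, which encodes the major chain of type I collagen, stood at 228.53, 252.97 and 179.64 FPKM in cardiomyocytes and at 7056.62, 7330.21 and 6429.55 FPKM in fibroblasts. Col1a2, the partner chain, stood at 136.78, 162.61 and 106.19 against 4399.1, 4378.59 and 4263.1 FPKM. Cardiomyocyte library 3 was the lowest of its group in both genes, as it was for Col3a1. Postn, the gene of periostin, a matricellular protein of activated fibroblasts, stood at 15, 13.73 and 9.98 against 1284.33, 1388.21 and 1482.3 FPKM (-6.66 ± 0.13 SE). Col4a1, Fn1 and Sparc, named after their values were seen, were less one-sided. The log2 fold change of Col4a1 was -1.93 ± 0.08, that of Fn1 -1.70 ± 0.09 and that of Sparc -1.20 ± 0.08. Other collagen genes of the list differed more, such as Col15a1 (-3.90 ± 0.09) and Col6a2 (-4.70 ± 0.06). In the list, Col18a1, a basement membrane collagen gene, was higher in cardiomyocytes, at 175, 176.68 and 173.01 against 49.26, 52.94 and 49.25 FPKM (1.77 ± 0.05). Collagen genes outside the list, named after their values were seen, were also called higher in cardiomyocytes, namely the basement membrane chains Col4a4 (3.70 ± 0.14) and Col4a3 (2.62 ± 0.13) and the transmembrane collagen Col13a1 (2.25 ± 0.14).

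Genes that assemble the matrix went with the collagens. Of 16 small leucine-rich proteoglycan and matricellular genes, 15 were called higher in fibroblasts (median -2.93), and of 25 elastic fibre and crosslinking genes 23 were (median -2.18). Mfap4, a microfibril-associated glycoprotein gene, stood at 0.64, 0.86 and 0.29 FPKM in cardiomyocytes and at 361.66, 392.04 and 380.76 FPKM in fibroblasts. Its log2 fold change of -7.91 ± 0.13 was the largest of all genes under the rule for large changes. Aspn (asporin) stood at 0.07, 0.14 and 0 against 53.21, 55.96 and 52.18 FPKM, and Spon1, a matrix protein gene, at 0.62, 0.76 and 0.56 against 73.51, 77.09 and 73.75 FPKM. Loxl1, which crosslinks elastin, was higher in fibroblasts at 207 ± 5.67 against 8.56 ± 1.57 FPKM, and Fbn1, the fibrillin of microfibrils, at 124 ± 9.79 against 9.38 ± 0.806 FPKM. In the same lists, Ltbp1, which holds latent TGF-beta in the matrix, was higher in cardiomyocytes (0.87 ± 0.08), and so was Wisp1 (0.44 ± 0.12, adjusted p = 0.00402), though under quantile normalization the call of Wisp1 was lost (adjusted p = 0.1). Proteases and their inhibitors were called higher in fibroblasts in 20 of 26 cases and in cardiomyocytes in 2, with a median of -1.46. Mmp2, a gelatinase gene, stood at 25.6, 25.37 and 20.97 against 353.99, 361.88 and 349.39 FPKM, and Adamts5, an aggrecanase gene, at 0.35, 0.47 and 0.2 against 20.39, 19.64 and 17.59 FPKM. Timp3, an inhibitor bound to the matrix, was higher in cardiomyocytes (0.62 ± 0.09).

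Lineage factors and receptors of fibroblasts were called higher in fibroblasts in 24 of 30 cases and in cardiomyocytes in 5, with a median of -1.51. Beside Tcf21, the platelet-derived growth factor receptors were prominent. Pdgfra stood at 0.75, 1.1 and 0.84 against 27.76, 31.27 and 30.08 FPKM, and Pdgfrb at 8.92, 10.73 and 8.16 against 231.62, 223.09 and 210.9 FPKM. Prrx1, a mesenchymal homeobox gene, had a log2 fold change of -3.35 ± 0.09 and the collagen receptor gene Ddr2 -3.34 ± 0.08. Genes that are often used to mark fibroblasts did not all follow. Scx, a transcription factor gene of tendon and valve, stood at 9.7, 11.82 and 8.02 FPKM in cardiomyocytes and 0.99, 1.44 and 1.61 FPKM in fibroblasts (2.20 ± 0.13). Cd44, the hyaluronan receptor gene, was higher in cardiomyocytes by 1.25 ± 0.09, and S100a4, also known as fibroblast-specific protein, by 0.70 ± 0.09, at 1405.78, 1360.24 and 1397.12 against 815.4, 805.19 and 941.32 FPKM. S100a4 was named after its value was seen. Epicardial markers, which mesenchymal cells of the heart can share, leaned to fibroblasts for Aldh1a2 (1.37 ± 0.142 against 64.0 ± 3.07 FPKM) and Wt1 (3.03 ± 1.30 against 17.0 ± 0.667 FPKM) and to cardiomyocytes for Krt18 (13.4 ± 0.0755 against 1.01 ± 0.496 FPKM). Of 6 tested in that list, 3 were called higher in fibroblasts and 1 in cardiomyocytes, beside 26.4% and 42.1% of all tested genes.

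Smooth muscle and myofibroblast genes were mostly higher in fibroblasts, yet Acta2 was abundant in both cultures. Of 23 genes, 20 were called higher in fibroblasts and 3 in cardiomyocytes, with a median of -1.48. Acta2, the smooth muscle actin gene, stood at 2361.18, 2248.62 and 2449.35 FPKM in cardiomyocytes and at 3248.12, 3182.32 and 3176.32 FPKM in fibroblasts. The groups did not overlap, but the log2 fold change was only -0.45 ± 0.07, and Cnn1 (calponin, -0.32 ± 0.06) and Myl9 (-0.42 ± 0.10) were as close. Cnn1 was named after its value was seen. Myh11, the smooth muscle myosin heavy chain gene, was further apart, at 2.43 ± 0.170 against 12.6 ± 0.618 FPKM (-1.98 ± 0.09). Larger differences were found for Mylk, the smooth muscle myosin light chain kinase gene (-3.40 ± 0.09), Lmod1 (-2.97 ± 0.09) and Tagln (-2.16 ± 0.09), and the largest for Itga11, a collagen-binding integrin gene (-4.50 ± 0.13). The 3 genes higher in cardiomyocytes were Synpo2 (4.30 ± 0.09), Des, which encodes desmin (4.20 ± 0.06), and Tpm1 (2.59 ± 0.09), all of which heart muscle uses. Among integrins and focal adhesion genes, 7 of 24 were called higher in cardiomyocytes and 11 in fibroblasts, or 6 and 15 after median-of-ratios scaling and 6 and 16 after quantile normalization. On the deposited scale, 42.1% and 26.4% of all tested genes were. Itga7, a laminin receptor gene of muscle, stood at 96.3, 101.17 and 114.2 against 4.04, 3.61 and 3.55 FPKM, and Itga8 at 1.54, 1.79 and 1.72 against 51.71, 50.61 and 43.72 FPKM.

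**Figure D4:**
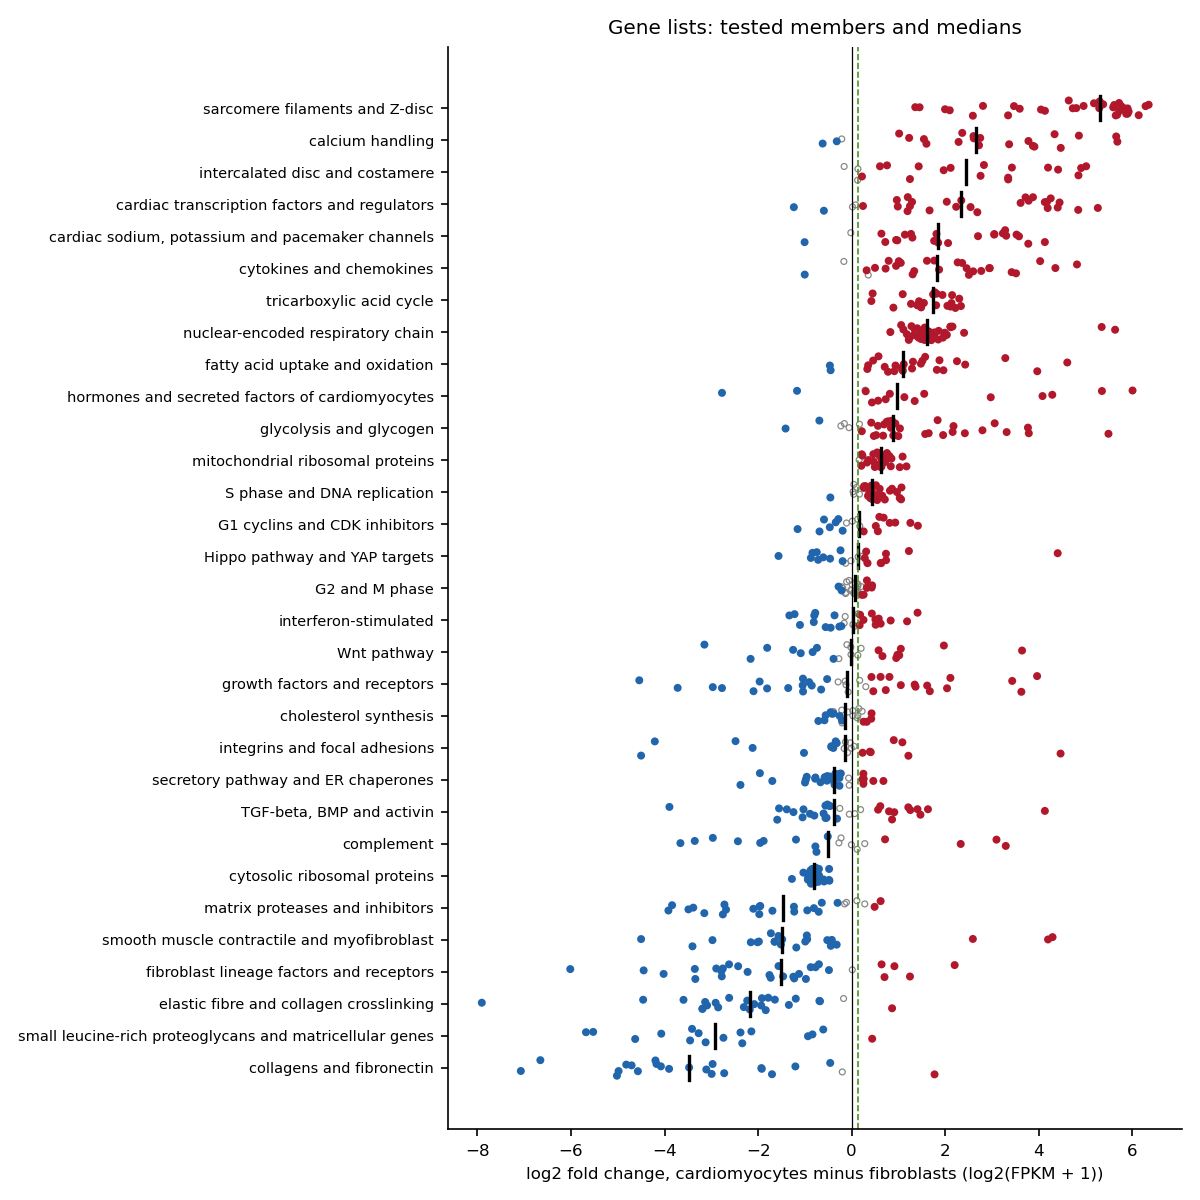
Log2 fold changes (cardiomyocytes minus fibroblasts, on log2(FPKM + 1)) of the tested members of 31 gene lists, ordered by list median (black bar); red and blue points were called higher in cardiomyocytes and fibroblasts, open grey points were not called, and the dashed line is the median of all tested genes, 0.13. Sarcomere genes (median 5.30) and collagens (-3.47) mark the ends, and cell cycle, Hippo and Wnt lists have medians near the dashed line.

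Signalling genes were called in both directions, as were all tested genes (42.1% higher in cardiomyocytes and 26.4% higher in fibroblasts). In the TGF-beta, BMP and activin list, 11 of 32 genes were called higher in cardiomyocytes and 17 in fibroblasts, with a median of -0.39. Bmp7, a BMP ligand gene, stood at 21.32, 24.96 and 26.36 FPKM in cardiomyocytes and at 0.29, 0.49 and 0.53 FPKM in fibroblasts, whereas the ligand gene Gdf6 stood at 1.61, 2.18 and 2.3 against 51.06, 42.41 and 38.93 FPKM. The secreted follistatin-like gene Fstl1 (-1.59 ± 0.06 SE) and the procollagen protease gene Bmp1 (-1.24 ± 0.07) were higher in fibroblasts, and the BMP target gene Id1 (1.47 ± 0.10) was higher in cardiomyocytes. Of 22 Wnt pathway genes, 8 were called in each direction. Sfrp1, which encodes a secreted Wnt antagonist, stood at 120.77, 128.37 and 139.16 against 9.21, 9.64 and 9.4 FPKM, and the ligand gene Wnt4 at 0.55, 1.01 and 0.46 against 15.8, 12.78 and 12.67 FPKM. The Wnt counts became 8 and 10 after median-of-ratios scaling and 8 and 11 after quantile normalization.

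Growth factors and receptors were called higher in cardiomyocytes in 15 of 36 cases and in fibroblasts in 15, or 14 and 19 after quantile normalization. The shares over all tested genes were 42.1% and 26.4%. Several ligand genes were on the cardiomyocyte side, led by Fgf18 (30.0 ± 3.71 against 1.01 ± 0.450 FPKM), Fgf1 (22.9 ± 6.16 against 0.893 ± 0.176 FPKM) and Pdgfb (29.3 ± 2.15 against 1.81 ± 0.336 FPKM). Pdgfb and the receptor gene Pdgfrb thus stood on opposite sides, and endothelial cells, whose markers were higher in the cardiomyocyte libraries, are a known source of Pdgfb in blood vessels. The part of endothelial cells in the Pdgfb value was not tested. Genes of IGF-binding proteins were on the fibroblast side. Igfbp6 stood at 2.45, 3.38 and 2.32 against 78.21, 96.59 and 80.69 FPKM, Igfbp3 at 31.28, 34.28 and 21.59 against 353.14, 412.1 and 400.77 FPKM, and Igfbp7 at 124.6, 124.22 and 123.62 against 949.9, 999.15 and 986.43 FPKM. The ligand gene Igf1 was on the same side, as given above.

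Cytokine and chemokine genes stood mostly on the cardiomyocyte side. Of 28 tested, 25 were called higher in cardiomyocytes and 1 in fibroblasts, with a median of 1.82. Csf2, the GM-CSF gene, stood at 31.11, 28.06 and 23.1 FPKM in cardiomyocytes and was listed at 0 in every fibroblast library. The neutrophil chemokine genes Cxcl3 (49.43, 46.79 and 41.61 against 1.25, 1.55 and 1.08 FPKM) and Cxcl6 (51.89, 69.43 and 37.65 against 2.23, 1.94 and 2.47 FPKM) came next. Csf3 and Nos2, the inducible nitric oxide synthase gene, were higher by 3.52 ± 0.22 and 3.42 ± 0.13. In contrast, Ccl2, the monocyte chemokine gene, was abundant in both cultures (1556.43, 1535.7 and 1178.31 against 1073.9, 1142.85 and 1177.18 FPKM), and its log2 fold change was 0.32 ± 0.11 (adjusted p = 0.021). The groups touched, with 1178.31 FPKM in the lowest cardiomyocyte library and 1177.18 FPKM in the highest fibroblast library. The call of Ccl2, named after its value was seen, was lost after median-of-ratios scaling (adjusted p = 0.158) and without cardiomyocyte library 1 or 2 or fibroblast library 1 (0.0734 to 0.0936). Selp, the P-selectin gene of endothelial cells and platelets, had the highest log2 fold change of the genes under the rule for large changes, 6.59 ± 0.10, at 164.9, 154.72 and 125.41 against 0.54, 0.47 and 0.62 FPKM. All 13 tested endothelial markers were called higher in the cardiomyocyte libraries, as given above. Of the 15 leukocyte markers, Adgre1 (0.79 ± 0.13), Itgam (0.41 ± 0.11, lost after quantile normalization with adjusted p = 0.14) and Fcgr2a (0.35 ± 0.12) were called higher there and 8 in fibroblasts. The call of Fcgr2a was lost after median-of-ratios scaling (adjusted p = 0.113) and quantile normalization (adjusted p = 0.167) and without cardiomyocyte library 2 (adjusted p = 0.106) or fibroblast library 1 (adjusted p = 0.0957). Ptprc stood at 3.68, 4.67 and 3.41 against 3.71, 3.67 and 4.14 FPKM. The part of either cell type in the cytokine values was not tested.

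Complement genes leaned to fibroblasts, with 10 of 19 called higher there and 4 in cardiomyocytes. Over all tested genes, 26.4% were called higher in fibroblasts and 42.1% in cardiomyocytes. The proteases that start the classical pathway were on the fibroblast side, C1s at 146.79, 190.3 and 183.77 FPKM against 11.69, 15.06 and 11.67 FPKM in cardiomyocytes, and C1r with a log2 fold change of -2.97 ± 0.09. The central component gene C3 (42.58, 44.31 and 39.71 FPKM in cardiomyocytes against 3.36, 4.69 and 4.17 FPKM) and the genes of the membrane-bound inhibitors Cd59 and Cd55 were on the cardiomyocyte side, by 3.10 ± 0.11, 3.30 ± 0.08 and 2.33 ± 0.09. Interferon-stimulated genes were called in both directions equally, 11 and 11 of 27, or 8 and 13 after median-of-ratios scaling and 7 and 14 after quantile normalization. Rsad2 (1.41 ± 0.11) and Gbp5 (1.19 ± 0.09) were higher in cardiomyocytes, and Mx1 (-1.33 ± 0.15) and Oas2 (-1.22 ± 0.11) in fibroblasts.

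Genes of the G2 and M phases differed little, and S phase genes were mostly higher in cardiomyocytes. Of 30 genes of the G2 and M phases, 7 were called higher in cardiomyocytes and 2 in fibroblasts, and 21 were not called. Over all tested genes, the shares on the deposited scale were 42.1% and 26.4%. After median-of-ratios scaling the counts for G2 and M genes were 3 and 5, and after quantile normalization 2 and 6. All 30 G2 and M genes lay between -0.28 and 0.44 on the log2 scale. Mki67, which encodes the Ki-67 antigen, stood at 29.55, 33.69 and 29.89 against 24.44, 23.23 and 20.73 FPKM, and Cdk1, the mitotic kinase gene, named after its value was seen, at 75.55, 73 and 68.69 against 75.94, 77.99 and 82.86 FPKM. Cdk1 was not called on the deposited scale and was called higher in fibroblasts after median-of-ratios scaling (adjusted p = 0.0011) and quantile normalization (adjusted p = 0.00023). S phase genes were called higher in cardiomyocytes in 26 of 32 cases and in fibroblasts in 1, with a median of 0.43; the counts were 22 and 1 after median-of-ratios scaling and 20 and 1 after quantile normalization. The largest differences were those of Gins2, a helicase subunit gene (1.07 ± 0.08 SE), and of Rrm1 and Rrm2, the subunits of ribonucleotide reductase (1.06 ± 0.06 and 1.03 ± 0.09). Which cells of the cardiomyocyte cultures expressed these genes was not tested. In the list of G1 genes, Ccnd1 (cyclin D1, 1.26 ± 0.07) was higher in cardiomyocytes, as was the homeobox gene Meis2 (1.42 ± 0.09), which the list also holds. Cdkn2b, an inhibitor of the cyclin D kinases (-1.16 ± 0.15), and Cdk4 (-0.69 ± 0.09) were higher in fibroblasts.

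Hippo pathway genes and YAP targets, which the study's Yap siRNA addresses in its other groups, were called higher in cardiomyocytes in 9 of 23 cases and in fibroblasts in 9, or 7 and 10 after median-of-ratios scaling and 7 and 11 after quantile normalization. All tested genes had shares of 42.1% and 26.4% on the deposited scale. Yap1 stood at 55.26, 60.8 and 63.11 FPKM in cardiomyocytes with control siRNA and at 35.42, 37.39 and 33.45 FPKM in fibroblasts (0.74 ± 0.10 SE), and Wwtr1, the gene of its paralog TAZ, at 41.66, 38.87 and 40.32 against 23.64, 25.94 and 21.97 FPKM (0.73 ± 0.09). The target genes did not share a direction: Ankrd1 (4.41 ± 0.08) was far higher in cardiomyocytes, where it was the fifth most abundant gene, while Ctgf (-0.61 ± 0.09), Cyr61 (-0.84 ± 0.10) and Axl (-1.56 ± 0.11) were higher in fibroblasts. The TEAD genes, whose products carry Yap to DNA, differed by member, with Tead3 (14.44, 14.56 and 14.72 against 27.4, 28.82 and 26.3 FPKM) and Tead2 (-0.72 ± 0.08) higher in fibroblasts and Tead1 not called (0.33 ± 0.15, adjusted p = 0.0729). Without cardiomyocyte library 1, Tead1 was called higher in cardiomyocytes (0.51, adjusted p = 0.00518), as it was with the replicate block (adjusted p = 0.0431) and in the fit of the 6 control libraries (adjusted p = 0.0453). Ctgf, Cyr61, Tead1 and Tead2 were named after their values were seen.

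The protein synthesis machinery was divided by compartment. All 33 cytosolic ribosomal protein genes tested were called higher in fibroblasts, with values between -1.28 (Rps19) and -0.48 and a median of -0.80, and 31 were called after quantile normalization (median -0.40). They held 8.81 to 9.17% of the summed FPKM in fibroblasts and 4.89 to 5.33% in cardiomyocytes. Of 29 mitochondrial ribosomal protein genes, 28 were called higher in cardiomyocytes and 0 in fibroblasts, with a median of 0.63, such as Mrpl15 (47.83, 47.04 and 47.82 against 20.13, 19.91 and 21.6 FPKM). The counts were 25 and 24 after median-of-ratios scaling and quantile normalization. In the secretory pathway 21 of 30 genes were called higher in fibroblasts and 6 in cardiomyocytes, with a median of -0.37. The collagen chaperone gene Fkbp10 (-1.96 ± 0.08), the retrieval receptor gene Kdelr3 (-1.70 ± 0.10) and Creb3l1, which encodes a membrane-bound transcription factor that acts on collagen genes (-2.38 ± 0.09), differed by at least 1, and the other genes of the list lay within 1 of 0. The counts were 23 in fibroblasts and 2 in cardiomyocytes after median-of-ratios scaling and 21 and 3 after quantile normalization. Cholesterol synthesis genes were called higher in cardiomyocytes in 4 of 22 cases and in fibroblasts in 8, and all lay between -0.71 and 0.43. Their counts were 2 and 11 after median-of-ratios scaling and 2 and 12 after quantile normalization. Over all tested genes, the shares on the deposited scale were 42.1% in cardiomyocytes and 26.4% in fibroblasts.

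A small number of genes were listed at 0 in all libraries of 1 cell type. There were 22 such genes in fibroblasts, of which 5 reached a mean of 5 FPKM in cardiomyocytes, and 16 in cardiomyocytes, of which 5 reached 5 FPKM in fibroblasts. An FPKM of 0 can be a failed estimate as well as an absent transcript, and no fold change is given. Beside Hba1, Hbb-b1, Csf2 and Kcne1, the cardiomyocyte side held LOC689064, at 4.52, 9.03 and 5.35 FPKM. On the fibroblast side stood Car3, a carbonic anhydrase gene (7.78, 7.61 and 9.21 FPKM), and the uncharacterized LOC103689947 (9.11, 10.32 and 13.33 FPKM). The other 3 were the microRNA entries Mir214 (13.5, 9.41 and 7.99 FPKM), Mir3120 (4.93, 4.91 and 6.08 FPKM) and Mir145 (9.64, 5.75 and 0 FPKM). In poly-A libraries such entries count fragments at the hairpin locus and need not reflect the mature microRNA.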

How the data were processed

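The deposited table holds FPKM per gene for 12 libraries, made by the authors, and the 6 libraries with control siRNA are compared here. HISAT, Bowtie2 and the rat build rn6 are named per the submitters' processing notes, without their roles or versions, and the sources used here do not name the tool that gave the FPKM, the strand settings or the treatment of reads matching several genes. Libraries were made with a low-input poly-A protocol for the BGISEQ-500, per the labels' protocols. Read depth is unknown. Columns were assigned to samples by name, and 0 pairs of libraries were identical. Of the gene symbols 31 were broken or blank, and 29 were restored by gene ID from RefSeq names. Of the gene IDs, 14516 of 14636 matched that table.

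Genes that averaged 0.5 FPKM or more in the 6 control libraries were tested with limma 3.58.1 (R 4.3.3) on log2(FPKM + 1), with a mean for each of the 4 groups, all 12 libraries sharing the estimate of the spread, a variance trend and Benjamini-Hochberg adjustment over 11207 genes. A pseudocount of 1 understates the fold change of low genes. The fit was tested on simulated data. The threshold was an adjusted p of 0.05. Tables and figures were made with Python 3.11.15, pandas 2.3.3, numpy 2.4.6 and matplotlib 3.10.9.

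The 39 gene lists have 1008 entries, of which 952 are in the table. The members and lists were chosen with earlier results of these data known. Genes named were the markers, the 12 largest called changes in each direction with at least 10 FPKM in each library of the higher group and no overlap of the groups, up to 4 members of a list in its main direction and 2 in the other with at least 5 FPKM, the isoform pairs and up to 8 genes per direction listed at 0. The others were named after their values were seen. Alternatives changed the pseudocount, the filter, the scaling, the variance trend, the libraries fitted, a replicate block and each library left out in turn. No label says whether the replicate numbers pair the libraries. Deviations of same-numbered libraries correlated at -0.0459, 0.0403 and -0.0663, which cannot show whether they shared a preparation. Some genes of the lists are counted in them but not reported here.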

Additional observations from a re-analysis of the deposited data

How the results depend on the processing

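The 7685 called genes became 2359 when a log2 fold change of at least 1 was also required, and that count became 1438 with a pseudocount of 5. Leaving out 1 library at a time gave 7169 to 7308 called genes, 4408 to 4551 higher in cardiomyocytes, 2731 to 2892 higher in fibroblasts and 2301 to 2402 with a change of at least 1, and 23 isoform pairs in each case. With the replicate block 7625 genes were called, 4677 higher in cardiomyocytes and 2948 in fibroblasts. Since no label pairs the libraries, this fit is only an alternative. Of the values of 316 named genes under 15 alternatives, 4642 kept direction and side of the threshold, 55 lost the call, 13 gained it and 0 reversed a call; the causes were not tested. Unknown read depth limits genes of low FPKM most.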

Other observations

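Translation elongation factor 1A, which brings tRNA to the ribosome, has a general and a muscle and nerve form, and the pair differed in both directions. Eef1a2 stood at 318.93, 324.01 and 368.78 FPKM in cardiomyocytes and at 5.12, 5.78 and 4.7 FPKM in fibroblasts, a log2 fold change of 5.77 ± 0.10 SE (limma adjusted p = 2.98e-16). Eef1a1 stood at 3666.69, 3533.22 and 3311.69 against 6721.64, 6868.7 and 7262.7 FPKM (-0.99 ± 0.08, limma adjusted p = 1.98e-08). The general form was thus the more abundant of the pair in both cell types. These genes, like those in the next paragraph, were named after their values were seen.

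Mest, an imprinted gene expressed in embryonic mesoderm, stood at 593.41, 602.31 and 456.87 FPKM in cardiomyocytes and at 5.94, 7.3 and 4.49 FPKM in fibroblasts, a log2 fold change of 6.33 ± 0.15. Other imprinted growth genes differed less or in the other direction, with Plagl1 at 1.06 ± 0.11, H19 at -0.84 ± 0.12, Igf2 at -0.65 ± 0.10, Peg3 at -0.67 ± 0.08 and Dlk1 at -1.72 ± 0.16. On the fibroblast side, Ptn, which encodes the secreted growth factor pleiotrophin, stood at 1.13, 1.62 and 1.13 against 197.6, 212.08 and 203.56 FPKM. Tubb3, a tubulin gene used as a marker of neurons, stood at 2.29, 3.56 and 2.53 FPKM in cardiomyocytes and at 76.05, 75.29 and 71.36 FPKM in fibroblasts. Of 5 tested Schwann and neuronal markers, 2 were called higher in fibroblasts and 1, Ncam1, in cardiomyocytes (1.45 ± 0.11). The shares over all tested genes were 26.4% and 42.1%. The sum of the 9 markers in the table was 57.0 to 70.7 FPKM in cardiomyocytes and 99.8 to 108 FPKM in fibroblasts, and their part in the Tubb3 value was not tested.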
